A study of Homo sapiens with 6 samples.

Results

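The genes examined here code for the proteins of the cytosolic ribosome, in MOLP-8 cells, a human line established from multiple myeloma, with and without CRISPR targeting of LIN28B. Members were the rows whose gene symbol is RPL or RPS, a number and at most 1 of the letters A, X or L, together with RPLP0, RPLP1, RPLP2 and RPSA. Of 83 such symbols, RPS10L was left out because GENCODE 29 lists it as a processed pseudogene. The remaining 82 members, out of 57861 genes with a value in every library, are 49 genes of the large and 33 of the small ribosomal subunit. The rule used names only, no measured value.

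The series holds 6 RNA sequencing libraries. In the 3 control libraries cells carried the lentiCRISPRv2 vector with a scrambled guide, and in the 3 LIN28B KO libraries the same vector with a guide against LIN28B; cells of both groups were selected with puromycin. The sample titles call the targeted group a knockdown and the condition label calls it a knockout; nothing says whether it was 1 clone or a mixed population. The labels also do not tell whether replicate libraries stem from different cultures. The p-values below therefore measure only how much these libraries vary, and that variation may be technical.

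A ribosome is built from a small subunit, which reads the mRNA, and a large subunit, which joins the amino acids, and each holds ribosomal RNA and its own set of proteins. Nearly all of these proteins are needed in equal numbers, and their mRNAs are among the most abundant of a growing cell. Many of these mRNAs begin with a C followed by a run of pyrimidines, the 5′ terminal oligopyrimidine (TOP) motif, through which mTOR and LARP1 govern their translation and stability. Myeloma cells are malignant plasma cells, which secrete immunoglobulin and depend on a high rate of protein synthesis. LIN28B is an RNA-binding protein best known as an inhibitor of let-7 maturation.

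The start of transcription is shown for 8 members because a pyrimidine run there is the feature that most members share and that the choice by name did not use. Sequences are from RefSeq (GRCh38.p14) and cover 15 bases on each side of the annotated start, written 5′ to 3′, so that the transcript begins with base 16. Capitals mark the longest run of C and T that overlaps the 5 bases on either side of the start. RPLP1, RPS19 and RPS27 are the members with the highest control level, RPS6, RPL14 and RPL28 each passed a test described below, and RPS27L and RPL10L are copies of other members. The windows lie at chr15:69452803-69452832 (RPLP1, plus strand), chr19:41860240-41860269 (RPS19, plus), chr1:153990747-153990776 (RPS27, plus), chr9:19380222-19380251 (RPS6, minus), chr3:40457324-40457353 (RPL14, plus), chr19:55385917-55385946 (RPL28, plus), chr15:63157463-63157492 (RPS27L, minus) and chr14:46651767-46651796 (RPL10L, minus).
RPLP1: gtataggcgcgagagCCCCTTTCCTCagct
RPS19: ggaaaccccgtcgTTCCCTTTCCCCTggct
RPS27: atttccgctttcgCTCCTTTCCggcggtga
RPS6: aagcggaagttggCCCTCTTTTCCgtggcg
RPL14: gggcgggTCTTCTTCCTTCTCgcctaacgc
RPL28: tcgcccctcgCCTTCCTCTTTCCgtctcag
RPS27L: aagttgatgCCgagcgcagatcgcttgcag
RPL10L: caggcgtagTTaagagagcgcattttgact

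The first 6 of these carry a run of 9 to 14 pyrimidines at or across the start, and the copies RPS27L and RPL10L carry a run of 2. Of the 82 members, 64 had a promoter entry. A run of at least 5 bases, each C or T with both present, overlapped the start window in 54 of them (84.4%), against 32.7% of the 27305 promoters in the table. A run of 8 or more was found in 45 members (70.3%) and in 10.95% of all promoters, and the transcript began with C in 46 members (71.9%) and in 14.99% of all promoters. The median run was 11 bases in the members and 3 in all promoters, and the longest, 25 bases, lay at RPL7A. The motif TATAA, searched 16 to 40 bases before the start, was present in 7 of these 64 members and in 4.22% of all promoters. RPL10L, RPL13, RPL15, RPL27, RPL4, RPL9, RPS15, RPS27A, RPS27L and RPS29 had no run of 5 in this window. Only the strand of the gene was searched. Members without an entry included RPL23, RPL23A, RPL30, RPL37, RPL39L, RPL3L, RPL5, RPL7, RPL8, RPS15A, RPS2 and RPS20.

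LIN28B itself stood at 23.3, 24.3 and 25.5 FPKM (fragments per kilobase of transcript, scaled to library size) in control libraries and at 8.41, 8.17 and 5.84 FPKM in LIN28B KO libraries 1 to 3, so that its mRNA remained at 30.7% of the control mean (24.4 ± 1.07 against 7.47 ± 1.42 FPKM, SD, n = 3 each, limma adjusted p = 0.0207, a call lost without any 1 library other than LIN28B KO library 3). A guide edits DNA, so the mRNA level is only a partial check of the targeting. Depth, estimated from the bounds deposited with each value, came to 6314594 to 8374056 fragment equivalents in control libraries and to 4811217 to 5600566 in the LIN28B KO libraries. LIN28B KO library 3 differed from all others. MALAT1, a nuclear RNA, reached 892 FPKM in it against 314 to 331 FPKM in LIN28B KO libraries 1 and 2. Control libraries had 259 to 286 FPKM, so that LIN28B KO libraries 1 and 2 also lay above all controls. In library 3, 28.7% of 349 olfactory receptor genes had a value above 0, against 9.46% to 14.6% elsewhere. Each comparison is therefore given with all 6 libraries and, on protein-coding genes, with the 5 libraries that remain without library 3. All 6 plasma cell markers reached 1 FPKM, with sums of 2314 to 2357 FPKM in control libraries and 1577 to 2326 FPKM in LIN28B KO. Of 3 markers each, 0 B cell, 1 T cell, 1 myeloid, 0 erythroid and 2 fibroblast genes reached 1 FPKM in any library; MS4A1, CD3D and HBA1 were at 0 in all of them, and the fibroblast markers summed to 2.78 to 5.13 FPKM in control libraries and 3.35 to 10.7 FPKM in LIN28B KO.

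Ribosomal protein mRNAs were among the most abundant of the controls. By control mean, 30 of the 50 and 60 of the 100 most abundant protein-coding genes were members, and all members together took up 16.2% ± 0.134 (SD, n = 3) of the summed FPKM of protein-coding genes. Of the 82 members, 77 had a control mean over 100 FPKM, and these ranged from 202 to 2872 FPKM, a span of 14.2-fold. The mean was at 1000 FPKM or more in 45 of them. FPKM is scaled to transcript length, so levels of different genes can be set side by side, although short and pseudogene-rich genes such as these are estimated with less certainty.

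The highest member was RPLP1, an acidic protein of the stalk that recruits translation factors, at 3006, 2863 and 2747 FPKM in control libraries. RPS19, whose gene is the one most often mutated in Diamond-Blackfan anaemia, followed at 2755, 2927 and 2786 FPKM. RPS27, a zinc-binding protein of the small subunit, stood at 2714, 2677 and 2913 FPKM. These 3 members overlapped in control libraries and could not be ranked beyond their spread. RPL37A came next at 2547 ± 95.1 FPKM, then RPS3 at 2123 ± 94.8, RPS29 at 1987 ± 222, RPLP2 at 1972 ± 151 and RPS16 at 1969 ± 43.5 FPKM (SD, n = 3 each). The last 4 overlapped as well, except that RPS3 lay above RPS16, and RPL37A lay above and apart from them in each control library. Over the 80 members that passed the filter of 1 FPKM in 3 libraries, the median coefficient of variation between controls was 4.08%. The median error taken from the deposited bounds of single libraries was 2.04% of the value.

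At the other end, RPL3L, RPL10L and RPL39L, all copies of another ribosomal protein gene, were far lower than most members. RPL3L, a form of heart and skeletal muscle, stood at 0.277, 0.109 and 0.151 FPKM in control libraries and at 0.201, 0.240 and 0.776 FPKM in LIN28B KO libraries 1 to 3. RPL10L, an autosomal copy of the X-linked RPL10 that is known from testis, stood at 0.845, 1.70 and 1.44 FPKM and at 0.884, 1.23 and 0.574 FPKM. RPL39L, another copy known from testis, stood at 35.7, 31.8 and 31.0 FPKM in control libraries and at 26.8, 27.0 and 19.0 FPKM in LIN28B KO libraries 1 to 3. Its LIN28B KO values lay below all controls, whereas those of RPL10L overlapped them. With 6 libraries, 80 members passed the filter and were tested, RPL3L not among them. With 5 libraries, where a match in GENCODE 29 was also needed, 79 were tested.

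**Figure D1:**
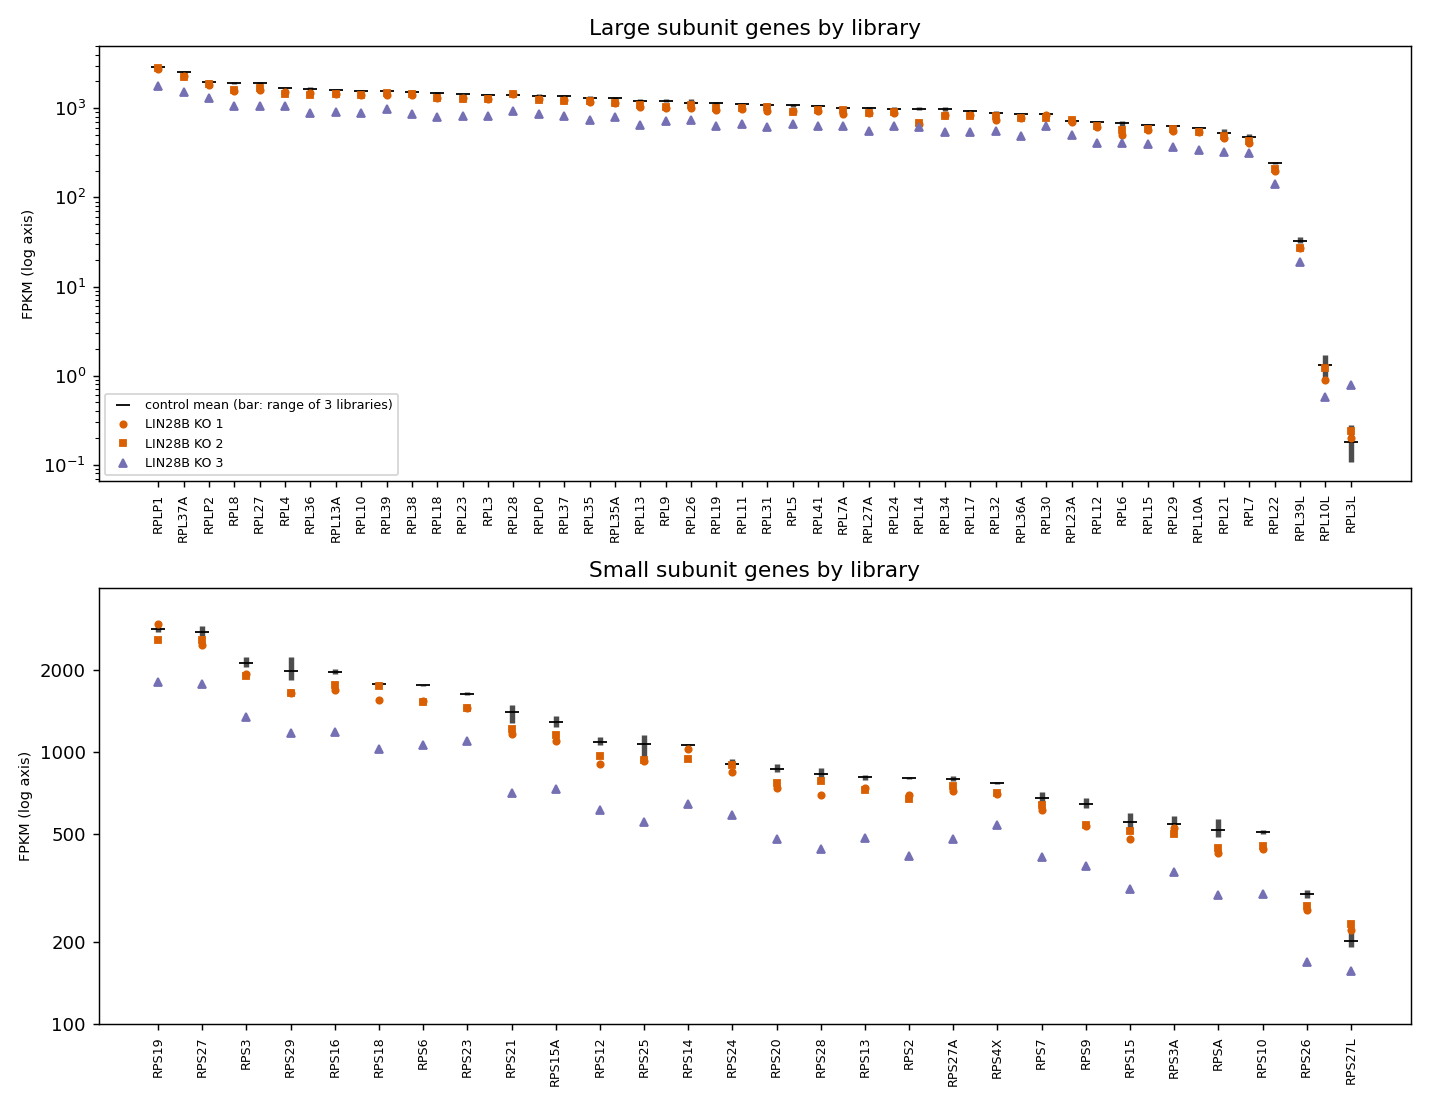
FPKM (log axis) of the members reported here, ordered by control mean, in the large subunit (top) and the small subunit (bottom). Bars span the 3 control libraries with a tick at their mean, and orange and violet points are LIN28B KO libraries 1 and 2 and library 3. Apart from RPL39L, RPL10L and RPL3L at the right of the top panel, control means lie between 202 and 2872 FPKM, and library 3 lies below the other LIN28B KO libraries for every member shown except RPL3L.

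Whether the large and the small subunit differed in proportion between the groups depended on the measure. The summed FPKM of the large subunit over that of the small was 1.58, 1.55 and 1.53 in control libraries and 1.54, 1.55 and 1.54 in LIN28B KO libraries 1 to 3, so that the LIN28B KO values fell within the range of the controls. The median large subunit member stood at 1116, 1121 and 1147 FPKM for controls and at 979, 1016 and 651 FPKM for LIN28B KO. The median small subunit member stood at 901, 887 and 919 FPKM for controls and at 829, 861 and 545 FPKM for LIN28B KO. The log2 ratio of these medians was 0.31, 0.34 and 0.32 for controls (0.32 ± 0.015, SD, n = 3) and 0.24, 0.24 and 0.26 for LIN28B KO (0.25 ± 0.011, SD, n = 3), lower in every LIN28B KO library. It compares the middle genes of each subunit, whereas the median log2 fold change takes each member against its own control level; that of the large subunit minus that of the small was -0.01 with all 6 libraries and 0.01 with 5.

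In the LIN28B KO libraries the level of nearly every member was lower than in control libraries, by about the same proportion. The median member stood at 87.8% and 89.8% of its control mean in LIN28B KO libraries 1 and 2 and at 59.1% in library 3. Below the control mean were 76, 76 and 80 of 80 members, beside 8327, 8400 and 11858 of all 15803 genes tested. By subunit the median was 87.9%, 89.9% and 58.9% for large and 87.4%, 89.7% and 59.3% for small subunit members. The summed FPKM of all members was 90676 to 93080 in control libraries, 81795 and 82985 for LIN28B KO libraries 1 and 2, and 54951 for library 3. Their share of protein-coding FPKM was 15.998% to 16.2% in control libraries, 15.1% and 15.3% for LIN28B KO libraries 1 and 2, and 13.98% for library 3. These sums and FPKM shares did not overlap between the groups. The members' share of the fragment equivalents, the depth estimate taken from the bounds, was 2.93% to 3.51% in control libraries. For LIN28B KO it was 3.65% to 3.95%, higher and also without overlap. This is not a share of reads, because it rests on the relative width of the bounds. For RPLP1 the error taken from them was 1.55% at 3006 FPKM (control library 1) and 1.72% at 1789 FPKM (LIN28B KO library 3). It therefore cannot tell whether the members' part of the reads rose or fell. The LIN28B KO libraries were also the shallower ones by this estimate, and the part of depth in either share was not tested. In bulk RNA, fewer cells of a type and less RNA per cell cannot be told apart, and FPKM, scaled to library size, measures neither.

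Other abundant mRNAs also had lower values in LIN28B KO. Among 353 other protein-coding genes whose control mean was at least 200 FPKM, a set added after seeing the data, the median of the log2 ratios to the control mean was -0.10 in LIN28B KO libraries 1 and 2 and -0.63 in library 3. For the members it was -0.19, -0.16 and -0.76, and for all 15803 genes tested -0.02, -0.02 and -0.36. Of the 353 genes, 265, 251 and 352 lay below the control mean in LIN28B KO libraries 1 to 3. The members were also closer together than those other genes: the interquartile range of the log2 ratio was 0.09 and 0.08 for members and 0.22 and 0.22 for the other abundant genes in LIN28B KO libraries 1 and 2. Among control libraries both sets had ranges of 0.05 to 0.10. What the level of a gene, library 3 and the depth of the libraries contributed to the lower member values was not tested.

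**Figure D2:**
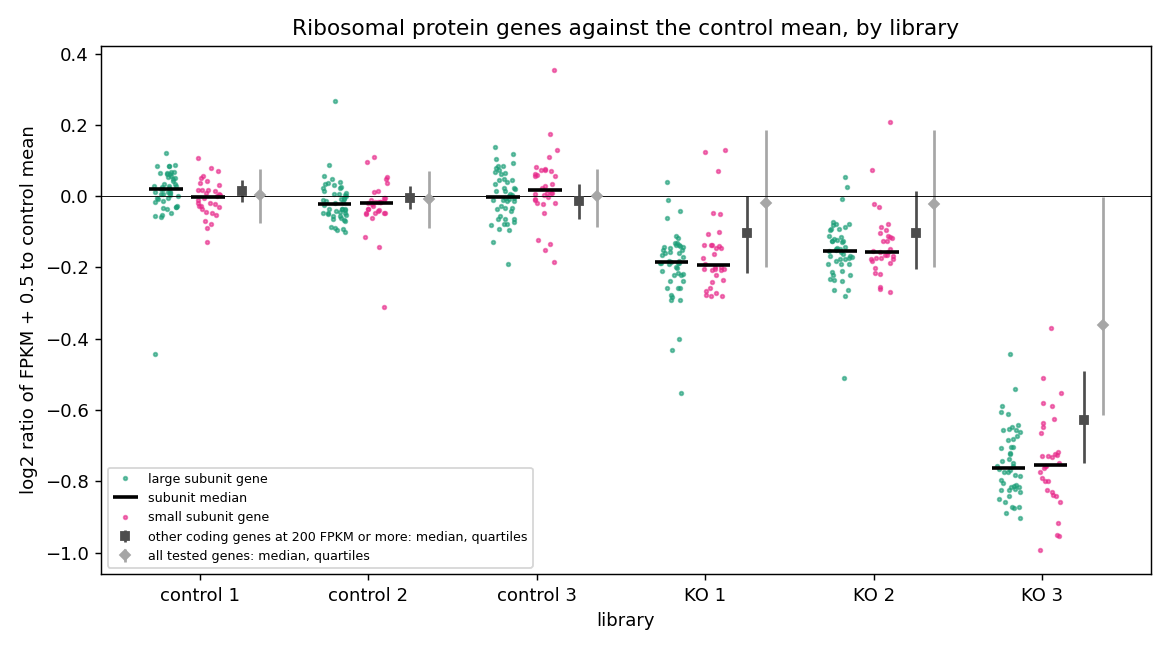
Log2 ratio of FPKM + 0.5 to the control mean for each tested member in each library, with the median of each subunit as a bar and, in grey, the median and quartiles of 353 other coding genes at 200 FPKM or more and of all tested genes. Both subunits have their medians near -0.19 and -0.16 in LIN28B KO libraries 1 and 2 and near -0.76 in library 3, below the medians of the grey sets.

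With all 6 libraries limma called no member, 0 of 80 lower and 0 higher (Benjamini-Hochberg adjusted p, threshold 0.05), beside a background of 0.0316% of genes lower and 0.0633% higher. At an unadjusted p under 0.05, 5 of the 80 members were lower and 0 higher, beside 1380 and 783 of all 15803 genes tested. All 80 fitted log2 fold changes were negative, as were 10513 of the 15803, with a median of -0.37 against -0.13 for all genes tested. After cyclic loess scaling, which removes a trend with level, 68 members and 7769 of all genes were negative. The members' median was then -0.08, with 0 members called (backgrounds 0.342% lower and 0.361% higher). At an unadjusted p under 0.05, 17 members were lower and 2 higher after this scaling, beside 1396 and 1467 of all genes. Without this scaling the lowest were RPL14 at -0.57 (SE 0.14, limma adjusted p = 0.253), RPS21 at -0.49 (SE 0.24), RPL6 at -0.48 (SE 0.17), RPL8 at -0.48 (SE 0.20) and RPS2 at -0.47 (SE 0.22). Every LIN28B KO library lay below every control for 67 of 80 members, 42 of the large and 25 of the small subunit, where 20.1% of all tested genes did so. The opposite held for 0 members (background 7.61%).

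With 5 libraries 16 of 79 members fell, beside a background of 3.02% of the 11308 protein-coding genes, and 0 rose (background 1.08%). Of the 16, 11 belong to the large subunit (among them RPL14, RPL8, RPL27, RPL9, RPL23, RPL6, RPL11, RPL35A, RPL5 and RPL3) and 5 to the small (RPS6, RPS2, RPS23, RPS9 and RPS16). The median log2 fold change of the 79 members was -0.17 against -0.04 for all genes tested, and 77 were negative, as were 6474 of the 11308. At an unadjusted p under 0.05, 63 members were lower and 1 higher, beside 1736 and 840 of the 11308 genes. Values of both LIN28B KO libraries lay below all controls for 67 of 79 members (background 26.4%) and above them for 1, RPS27L (background 15%). The calls rested on small differences: 1 member, RPL14, was left after cyclic loess scaling, where 1.17% of genes were lower and the members' median was -0.05, and 1 was left when non-coding genes were tested as well. None was left without the filter on low values or without any 1 of the 5 libraries.

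RPL14, a large subunit protein without a bacterial counterpart, had the largest fall. Its gene lies on chromosome 3 at 40498783 to 40503861 of GRCh37 (ENSG00000188846). It stood at 1024, 952 and 956 FPKM in control libraries and at 667, 687 and 621 FPKM in LIN28B KO libraries 1 to 3, so that all LIN28B KO libraries lay below all controls. The deposited bounds did not overlap between the groups either: the lowest control bound was 845 FPKM and the highest LIN28B KO bound was 781 FPKM. These bounds were wide for a member: the error taken from them was 4.71% to 6.94% of the value, against a median of 2.04% over the 80 tested members. Why the RPL14 estimate was less certain was not tested. With 5 libraries RPL14 was 1.44-fold lower (limma log2 fold change -0.53, SE 0.05, adjusted p = 0.0142), and after cyclic loess scaling the log2 fold change was -0.42 (adjusted p = 0.0176). Set against the median member of the same library, RPL14 stood at 94.8%, 89.9% and 90.4% in control libraries, at 71.8% and 72.0% in LIN28B KO libraries 1 and 2 and at 97.5% in library 3. The libraries therefore differed: in libraries 1 and 2 RPL14 was low among the ribosomal protein genes, and in library 3 it was not, since the other members were lower there too.

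RPL8, a protein near the peptidyl transferase centre, stood at 1972, 1884 and 1957 FPKM in control libraries and at 1584, 1613 and 1058 FPKM in LIN28B KO libraries 1 to 3. It was 1.21-fold lower with 5 libraries (limma log2 fold change -0.28, SE 0.04, adjusted p = 0.0249). RPL6 stood at 686, 640.5 and 716 FPKM and at 504, 566 and 405 FPKM, and was 1.27-fold lower with 5 libraries (limma log2 fold change -0.35, SE 0.07, adjusted p = 0.0444). All LIN28B KO libraries lay below all controls for both genes, as for 67 of all 80 members and 20.1% of all tested genes. Both lost the call after cyclic loess scaling. RPL27, RPL9 and RPL23 fell by 0.22, 0.24 and 0.17 on the log2 scale, that is 1.17-, 1.18- and 1.12-fold, and RPL35A fell by 0.18 (limma adjusted p = 0.0355 to 0.0466). RPS9 and RPS16 of the small subunit fell by 0.26 and 0.19 (limma adjusted p = 0.0411 and 0.0414).

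By role, both proteins that bind the 5S ribosomal RNA fell with 5 libraries, where 16 of all 79 members did. RPL5 stood at 1079.9, 1119 and 1028 FPKM in control libraries and at 925, 914 and 670.4 FPKM in LIN28B KO libraries 1 to 3 (limma log2 fold change -0.22, SE 0.05, adjusted p = 0.0473 with 5 libraries). RPL11 stood at 1116, 1123 and 1148 FPKM and at 993, 1005 and 667 FPKM (limma log2 fold change -0.18, SE 0.03, adjusted p = 0.0447 with 5 libraries). When free of the ribosome, this pair binds MDM2, the ligase that degrades p53. In both genes every LIN28B KO library lay below every control, as in 67 of all 80 members and 20.1% of all tested genes.

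At the centre and in the tunnel of the large subunit, 1 of 4 genes fell, beside 16 of all 79 members. RPL3, which reaches toward the site of peptide bond formation, stood at 1442, 1411 and 1405 FPKM in control libraries and at 1271, 1267 and 817 FPKM in LIN28B KO (limma log2 fold change -0.16, SE 0.03, adjusted p = 0.0498 with 5 libraries). RPL4, which lines the exit tunnel, stood at 1709.9, 1640.3 and 1659.5 FPKM and at 1509.7, 1463 and 1060.5 FPKM. RPL10, among the last proteins to join the subunit, stood at 1603, 1598 and 1512 FPKM and at 1423, 1409 and 887 FPKM. RPL39, a very short protein of the tunnel, stood at 1564, 1536 and 1574 FPKM and at 1411, 1477 and 990.0 FPKM. All 4 were lower in LIN28B KO without overlap, as were 67 of all 80 members and 20.1% of all tested genes. The threshold was passed only by RPL3.

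None of the 7 genes at the tunnel exit passed with 5 libraries, where 16 of all 79 members did. An unadjusted p under 0.05 in limma was found for 5 of the 7, all lower, beside 63 of all 79 members. RPL22, RPL19, RPL17, RPL31, RPL35 and RPL26 stood at 84.4%, 86.7%, 88.8%, 89.2%, 90.03% and 90.8% of their control means over LIN28B KO libraries 1 and 2. RPL23A, which docks the signal recognition particle, was the exception. It stood at 772, 720.1 and 688 FPKM in control libraries and at 706, 739 and 499 FPKM in LIN28B KO libraries 1 to 3, and libraries 1 and 2 thus fell within the range of the controls (99.4% of the control mean).

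None of the 4 stalk genes passed with 5 libraries in limma, where 16 of all 79 members did. At an unadjusted p under 0.05, 2 of the 4 were lower and 0 higher, beside 63 and 1 of all 79 members. RPLP1 stood at 2751, 2855 and 1789 FPKM in LIN28B KO libraries 1 to 3, of which the first 2 overlapped the controls. RPLP2 stood at 2092, 2021 and 1803 FPKM in control libraries and at 1817, 1876 and 1292 FPKM in LIN28B KO, also overlapping. RPLP0, the core of the stalk, stood at 1435, 1342 and 1379 FPKM and at 1282, 1244 and 868 FPKM. RPL12, at the base of the stalk, stood at 721, 725 and 656 FPKM and at 615, 635 and 409.7 FPKM. Neither of these overlapped, as held for 67 of all 80 members that were lower in LIN28B KO and for 20.1% of all tested genes.

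In the small subunit, 2 of 4 genes of the decoding and mRNA entry sites fell with 5 libraries, beside 16 of all 79 members. RPS2 stood at 792, 811 and 808 FPKM in control libraries and at 696, 673 and 415 FPKM in LIN28B KO libraries 1 to 3 (limma log2 fold change -0.23, SE 0.04, adjusted p = 0.0329 with 5 libraries). RPS23, a protein of the decoding centre, stood at 1658, 1632 and 1625 FPKM and at 1453, 1449 and 1096 FPKM (limma log2 fold change -0.18, SE 0.03, adjusted p = 0.0382). RPS3 at the entry site stood at 2232, 2082 and 2056 FPKM and at 1931, 1904 and 1339 FPKM, and was lower in every LIN28B KO library without passing. RPS15 stood at 596, 559 and 504 FPKM and at 479, 512 and 312 FPKM, overlapping between the groups.

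RPS6, the substrate of the S6 kinases downstream of mTOR, stood at 1767, 1739.5 and 1768 FPKM in control libraries and at 1540.1, 1529.8 and 1062 FPKM in LIN28B KO. All LIN28B KO libraries lay below all controls, and the gene was 1.15-fold lower with 5 libraries (limma log2 fold change -0.20, SE 0.03, adjusted p = 0.0320). RPS27A, which is made as a fusion with ubiquitin, stood at 812, 786 and 784 FPKM and at 718, 747 and 479 FPKM, without passing. Of 9 tested genes mutated in Diamond-Blackfan anaemia, an inherited failure of red cell production, 3 fell with 5 libraries, beside 16 of all 79 members: RPL5, RPL11 and RPL35A. RPS19 stood at 2964, 2589 and 1800.2 FPKM in LIN28B KO libraries 1 to 3, so that library 1 lay above all controls and library 2 below them. RPS29 stood at 1883, 1836 and 2243 FPKM in control libraries and at 1639.8, 1649.8 and 1170.0 FPKM in LIN28B KO, where the spread of the controls was wide and the limma test was not passed (log2 fold change -0.27, SE 0.08, adjusted p = 0.126).

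To find members that departed from the others, each gene was set against the median of the tested members in the same library. On this scale limma called 1 of 79 members lower (1.27%, background 0.805%) and 2 of 79 higher with 5 libraries. The share called higher was below its background of 6.42% of genes. The median of all genes on this scale is 0.15 (quartiles 0.01 and 0.29), since the members lay below other genes. RPL14 was lower (log2 difference -0.35, SE 0.04, adjusted p = 0.0138). RPL28 was higher (log2 difference 0.23, SE 0.04, adjusted p = 0.0360), as was RPS27L (log2 difference 0.35, SE 0.07, adjusted p = 0.0368). RPL28 lay within the quartiles of all genes and RPS27L above them. With all 6 libraries 0 members were called on this scale (backgrounds 0.177% lower and 1.23% higher). At an unadjusted p under 0.05, 1 member was lower and 6 higher, beside 265 and 4235 of all 15803 genes. RPS27L was at 0.36 (limma adjusted p = 0.0594), RPL28 at 0.20 (adjusted p = 0.0702) and RPL14 at -0.20 (adjusted p = 0.295). When any 1 of the 5 libraries was left out, at most 1 member was called in each direction. Next in the 5-library order by p came RPLP1 at 0.15 (limma adjusted p = 0.0655), RPL23A at 0.18 (0.0788), RPL8 at -0.09 (0.114), RPS24 at 0.12 (0.122) and RPL6 at -0.16 (0.130).

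RPL28, another large subunit protein without a bacterial counterpart, stood at 1477, 1345 and 1360.1 FPKM in control libraries and at 1432, 1448 and 927 FPKM in LIN28B KO libraries 1 to 3. Libraries 1 and 2 fell within the range of the controls at 103% of their mean, and library 3 lay at 66.5%. Its level thus did not rise in FPKM, and it stood out only against the other members. Among the 77 members over 100 FPKM, 66 lay within 0.1 of the library's member median in LIN28B KO library 1 and 66 in library 2, and 51 did in library 3, against 64 to 77 in control libraries. On this scale all 3 LIN28B KO libraries lay above all controls for 8 of 80 members, a smaller share than the 36.4% of all genes. These were RPL23A, RPL28, RPL39, RPLP1, RPS24, RPS27A, RPS27L and RPS4X. All 3 LIN28B KO libraries lay below all controls for 3 of 80 members (RPL27 and RPL8 among them), where 2.71% of all genes did. In LIN28B KO libraries 1 and 2 alone, 10 of 80 members lay above all controls (background 39.6%) and 10 of 80 below (background 7.68%). RPS4X was close to the member median in LIN28B KO libraries 1 and 2, with log2 differences of 0.05 and 0.04, and at 0.25 in library 3.

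**Figure D3:**
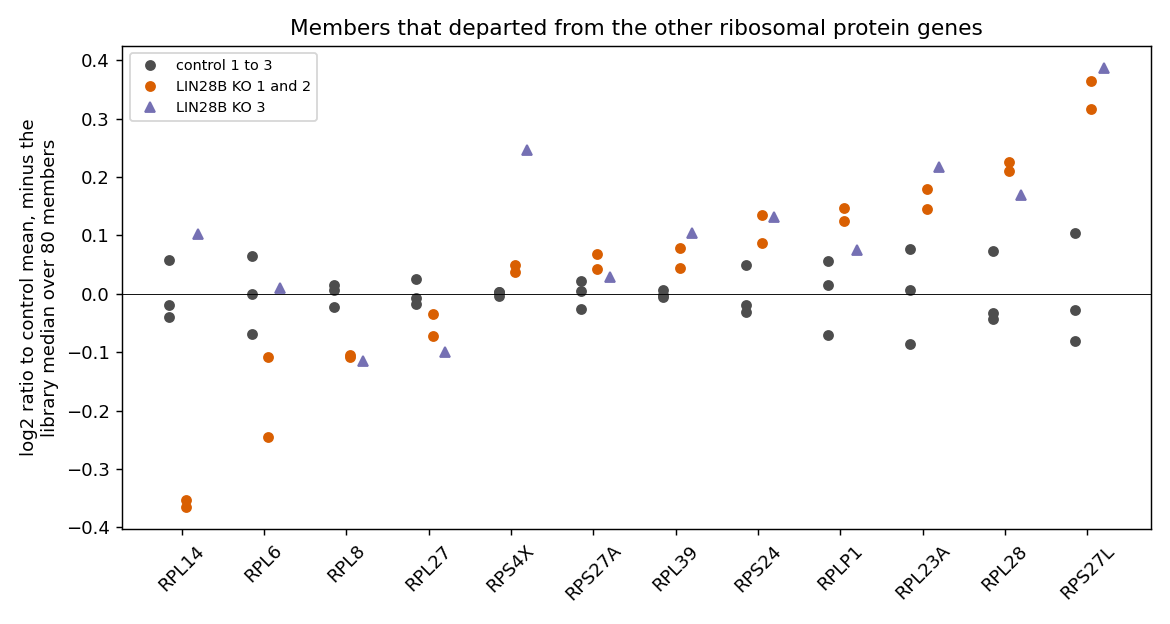
Log2 ratio to the control mean minus the library's median over 80 members, for 10 members outside the range of the controls in all 3 LIN28B KO libraries and for RPL14 and RPL6; grey points are the 3 controls, orange points LIN28B KO libraries 1 and 2 and violet triangles library 3. RPL14 lies at -0.37 and -0.35 in libraries 1 and 2 and at 0.10 in library 3, whereas RPS27L lies at 0.32, 0.36 and 0.39.

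RPS27L, a copy of RPS27 that p53 can induce, had the highest ratio to its control mean of the 77 members over 100 FPKM, both in LIN28B KO libraries 1 and 2 and in library 3. Its gene lies on chromosome 15 at 63418071 to 63450220 of GRCh37 (ENSG00000185088). It stood at 192, 195 and 218 FPKM in control libraries and at 221, 233 and 156 FPKM in LIN28B KO libraries 1 to 3, the first 2 above all controls and the third below them. The limma log2 fold change was 0.17 with 5 libraries (SE 0.07, adjusted p = 0.200) and -0.01 with all 6, so that its FPKM passed no test. As a percentage of RPS27 it stood at 7.07, 7.29 and 7.47 in control libraries and at 8.93, 9.04 and 8.75 in the LIN28B KO libraries. All 3 LIN28B KO values lay above all controls, library 3 included (8.91% ± 0.144 against 7.28% ± 0.201, SD, n = 3 each; exact two-sided permutation p = 0.1, the smallest that 3 against 3 allows). A rise against ribosomal protein mRNAs was common. Set against the member median, 36.4% of all tested genes lay above all controls in every LIN28B KO library. RPS27L, unlike RPS27, has no pyrimidine run of 5 at the start shown above.

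The same ratio was computed for 9 pairs of a copy and its counterpart. RPL39L stood at 2.29%, 2.07% and 1.97% of RPL39 in control libraries and at 1.90%, 1.83% and 1.92% in LIN28B KO, without overlap (exact two-sided permutation p = 0.1). RPL22L1 stood at 47.9% ± 4.95 of RPL22 in control libraries and 54.9% ± 5.06 in LIN28B KO (SD, n = 3 each), with overlapping values (exact two-sided permutation p = 0.2). RPL36AL stood at 22.1% ± 1.65 and 24.3% ± 1.31 of RPL36A (SD, n = 3 each), also overlapping (exact two-sided permutation p = 0.2). For the other 5 pairs the exact permutation p lay between 0.3 and 0.9. Adjusted over the 9 pairs by the Benjamini-Hochberg method, no exact permutation p was under 0.386.

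**Figure D4:**
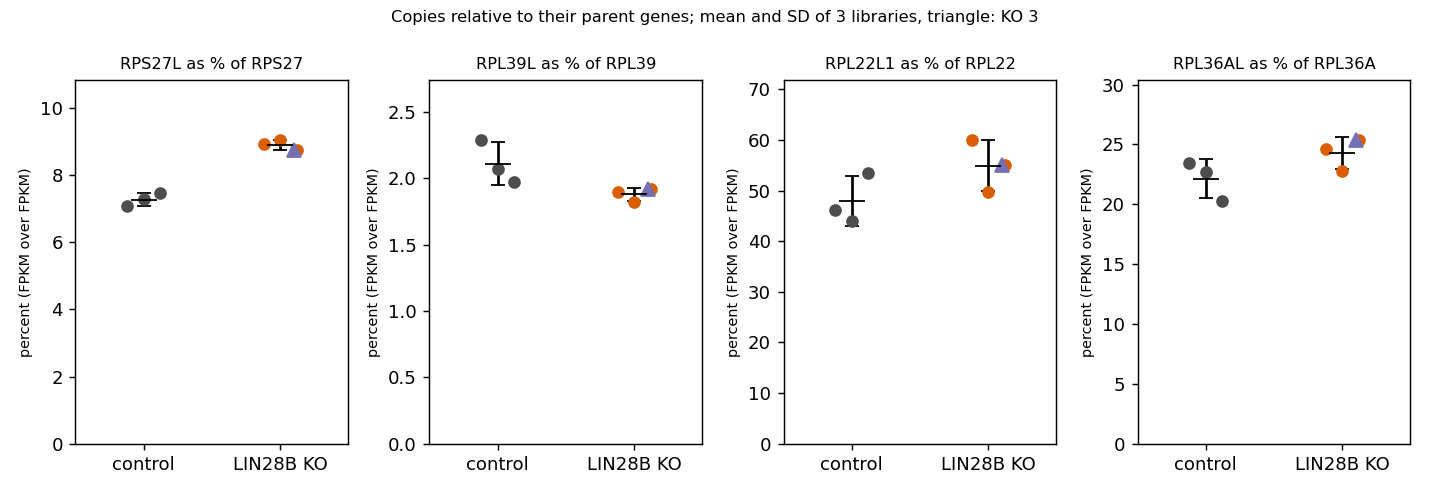
FPKM of 4 copies as a percentage of the FPKM of their counterpart in each library, with mean and SD of 3 libraries per group; the triangle is LIN28B KO library 3, and axes start at 0. RPS27L relative to RPS27 is above all controls in every LIN28B KO library (8.75% to 9.04% against 7.07% to 7.47%), and RPL39L relative to RPL39 is below them.

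Ribosomal protein genes outside the naming rule were read from a fixed list. With 5 libraries limma called 0 of 7 (among them FAU, GNB2L1, RPL22L1, RPL26L1, RPL36AL and RPL7L1). At an unadjusted p under 0.05, 3 were lower and 0 higher, beside 1736 and 840 of all 11308 genes. GNB2L1, now named RACK1, a signalling scaffold on the small subunit, stood at 2813, 2658 and 2462 FPKM in control libraries and at 2186, 2389 and 1429 FPKM in LIN28B KO libraries 1 to 3. It lay below all controls in every LIN28B KO library.

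Other mRNAs known for a TOP motif were read from a fixed list. With 5 libraries 6 of 15 fell and 0 rose, beside backgrounds of 3.02% and 1.08% of genes. The median log2 fold change of the 15 was -0.21. Those that fell were the elongation factor genes EEF1A1 (-0.23) and EEF1D (-0.22), the poly(A)-binding protein PABPC1 (-0.22), the nucleolar chaperone NPM1 (-0.21), HNRNPA1 (-0.30) and NAP1L1 (-0.28) (limma adjusted p = 0.0289 to 0.0470). EEF2, the translocation factor, stood at 2329, 2236 and 2179 FPKM in control libraries and at 2279, 2132 and 1893 FPKM in LIN28B KO. After cyclic loess scaling 0 of these 15 passed in limma, and their median was -0.10. At an unadjusted p under 0.05, 4 of them were lower and 2 higher after this scaling, beside 1188 and 1171 of all 11308 genes. Of 8 genes that govern TOP mRNAs or ribosomal protein transcription, MYC fell with 5 libraries, from 217 ± 6.69 FPKM (SD, n = 3) to 171 and 174 FPKM (limma log2 fold change -0.33, adjusted p = 0.0298), and stood at 112 FPKM in library 3; the call was lost after cyclic loess scaling (limma adjusted p = 0.0693). MTOR stood at 18.3, 18.8 and 19.9 FPKM in control libraries and at 18.2, 21.0 and 13.4 FPKM in LIN28B KO, overlapping. LARP1 stood at 185, 155 and 189 FPKM and at 145, 146 and 138 FPKM, below all controls, without passing with 5 libraries (limma adjusted p = 0.144).

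Dedicated chaperones of ribosomal proteins (GRWD1, BCCIP, HEATR3, TSR2, PDCD2 and LTV1) had a median log2 fold change of -0.16 with 5 libraries, with 0 of 6 called in limma. At an unadjusted p under 0.05, 2 were lower, beside 1736 of all 11308 genes. The 72 tested genes of the mitochondrial ribosome, which has its own set of proteins, had a median of -0.15, close to the -0.17 of the cytosolic members. None of the 72 was called in limma, and 23 were lower and 0 higher at an unadjusted p under 0.05, beside 1736 and 840 of all 11308 genes. After cyclic loess scaling the median was -0.08 for the mitochondrial and -0.05 for the cytosolic genes. The difference between these sets was not tested.

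The size of the difference had little relation to the level of the member. Across the 77 members over 100 FPKM, the control level and the 5-library log2 fold change had a Pearson r of -0.05 and a Spearman rho of 0.03, given as a description across genes that share the same libraries. Over LIN28B KO libraries 1 and 2 these members ranged from 69.2% (RPL14) to 113% (RPS27L) of their control means, and in library 3 from 50.2% (RPS21) to 77.3% (RPS27L). The members lie on 21 chromosomes, with 12 on chromosome 19 and 8 on chromosome 3. Over LIN28B KO libraries 1 and 2 the chromosome 3 members stood at 69.2% (RPL14), 81.7% (RPL39L), 84.1% (RPSA), 87.1% (RPL32), 88.4% (RPL35A), 89.0% (RPL15), 90.8% (RPL24) and 91.0% (RPL29) of their control means.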

How the data were processed

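RNA from MOLP-8 cells was sequenced in 6 libraries, 3 control and 3 LIN28B KO, grouped by the condition label. The tools named, per the submitters' processing notes, are cutadapt, TopHat2 and HTSeq and the build is GRCh37; their versions and roles were not given. The authors deposited FPKM for each gene and its bounds, per the file headers. These are not read counts. The test was limma 3.58.1 (in R 4.3.3) on log2(FPKM + 0.5), using a variance trend and Benjamini-Hochberg adjustment over all genes with at least 1 FPKM in at least 3 libraries. Fold changes on this scale understate those of low genes. Rows of the same gene were summed (222 rows of 108 genes), and 25 genes with a failed estimate were left out. The 5-library comparison used genes that GENCODE 29 lists as protein-coding by identifier. Fragment equivalents, derived from the bounds, are only an estimate of depth. Each bound comes from 1 library, and which errors it covers beyond counting is not known. Scripts were tested on simulated data.

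Members, gene lists and the 5-library comparison were chosen with earlier results of these data known. Named members followed a fixed rule: the 8 highest and 4 lowest by control mean, those past a threshold with 6 libraries, after cyclic loess scaling or against the member median, the 10 smallest p values with 5 libraries, the 5 highest and 5 lowest fold changes of each fit, and the role lists. Some members are not reported here. Other members are named as examples after their values were seen. Alternatives were pseudocounts of 0.1 and 1, no filter, quantile and cyclic loess scaling, the replicate number as a block and each library left out.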

Additional observations from a re-analysis of the deposited data

How the results depend on the processing

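The counts of called members depended on the processing and the medians on the scaling. The 16 members called lower with 5 libraries became 1 with non-coding genes included, 1 with cyclic loess, 2 with quantile normalization, 0 without the filter on low values, and 0 without any 1 library. The members' median log2 fold change was -0.052 with cyclic loess and -0.040 with quantile normalization (5 libraries; -0.19 to -0.16 without 1 library), and -0.076 and -0.10 with all 6 (-0.48 to -0.17 without 1 library; -0.17 without LIN28B KO library 3, -0.48 without library 2). With 6 libraries, 0 to 1 members were called lower without 1 library, the 1 without LIN28B KO library 3. Against the member median, the 2 higher and 1 lower calls became 0 and 0 with all 6 libraries and 0 to 1 each without 1 library. Large minus small subunit moved from -0.01 to 0.0082 with 5 libraries and ranged from -0.028 to -0.00044 without 1 library. LIN28B (-1.66) missed the threshold without the filter (limma adjusted p = 0.142), and ranged from -1.75 to -1.50 without 1 library (adjusted p up to 0.185).

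Replicate numbers did not pair the samples: deviations of same-numbered libraries correlated at -0.02, 0.04 and -0.03. With the replicate block, 0 members were called lower with 5 libraries, 1 was called higher against the member median, and LIN28B (-1.66) had a limma adjusted p of 0.0604.

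The direction of 5 reported members reversed under some alternatives. With 5 libraries RPL23A went to 0.11 with cyclic loess, 0.12 with quantile normalization and ranged from -0.046 to 0.037 without 1 library (0.026 without LIN28B KO 1); RPLP1 to 0.10 with cyclic loess; RPS19 to 0.10 with cyclic loess and ranged from -0.12 to 0.071 without 1 library (3.19e-05 without control 2). With 6 libraries RPL28 (-0.16) went to 0.13 with either scaling and ranged from -0.27 to 0.048 without 1 library, and RPS27L to 0.25 and 0.19 and ranged from -0.12 to 0.17 (0.048 without control 3). RPL28 and RPS27L were positive without LIN28B KO 3. The cause of these shifts was not tested. Depth is known only as an estimate, and the 3 libraries a group allow no exact permutation p under 0.1.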
